A study of Mus musculus with 6 samples.

Results

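The enzymes that degrade cyclic AMP, the phosphodiesterases, were examined in LβT2 cells transfected with Gas siRNA or scrambled siRNA; LβT2 is an immortalised line of mouse gonadotropes, the pituitary cells that secrete luteinizing hormone. The genes were Pde4a, Pde4b, Pde4c, Pde4d, Pde3a, Pde3b, Pde7a, Pde7b, Pde8a and Pde10a, and their probes were taken by gene symbol from the platform annotation. That gave 25 of the 45281 probes of an Illumina mouse whole-genome BeadChip, covering 9 of the 10 genes among 19057 genes named on the array. Expression of Pde8a was not analysed here. Both groups were cells of 1 line (strain label CB6F1/J) in serum-containing medium, transfected for 48 h with no other treatment labelled, with 3 Gas siRNA and 3 scrambled siRNA samples. Separate cultures are not stated for the RNA samples, so each p-value is set against a spread that may be technical only.

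Gas siRNA was read as targeting Gs alpha, the G protein subunit that stimulates adenylyl cyclase, encoded by Gnas. Phosphodiesterases hydrolyse cyclic AMP and so end the signal that Gs alpha starts. The PDE4 family is specific for cyclic AMP and has 4 genes, each making long and short isoforms from several promoters; protein kinase A phosphorylates and activates the long forms, and transcription of Pde4b and Pde4d is induced by cyclic AMP in many cells, so that the pathway limits itself. PDE3 enzymes hydrolyse cyclic AMP and are inhibited by cyclic GMP, PDE7 and PDE8 enzymes are specific for cyclic AMP, and PDE10A hydrolyses both nucleotides.

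Most phosphodiesterase probes gave little or no signal above background in these cells. A background bound was set on each array at the 95th percentile of its background, an intensity between 143 and 144, and a probe was kept when it exceeded the bound on at least 3 of the 6 arrays. By that rule 8 of the 25 probes were kept (32.0%), against 47.6% of all probes, and they represented 6 genes: Pde4a, Pde4b, Pde4d, Pde3a, Pde7a and Pde10a. The probes of Pde4c, Pde3b and Pde7b were above the bound on 0 arrays of either group. Of the 17 probes not kept, 15 exceeded the bound on no array and 2 on 1 or 2 arrays. All 8 kept probes were dimmer than the median of the 21535 kept probes of the array.

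The brightest Gnas probe (ILMN_2632206) checked the siRNA, at 8.83, 8.95 and 8.93 with Gas siRNA and 11.81, 11.76 and 11.87 with scrambled siRNA (7.51-fold lower, limma adjusted p = 6.08e-20). Of 10 Gnas probes 7 were kept and 2 passed, both lower with Gas siRNA; the other 5 had differences between -0.90 and 0.20, and the mean of the 7 gave -1.12 (limma adjusted p = 0.000411). The label LβT2 was checked against gonadotrope markers, of which 7 of 9 had a kept probe, including Cga, Gnrhr, Lhb and Nr5a1, and 0 changed in limma (1 had an unadjusted p under 0.05); Fshb had no kept probe. Of 8 markers of other pituitary cell types 1 had a kept probe, Gh, which was near background (5.33 with Gas siRNA and 5.78 with scrambled siRNA). Of 7 markers of non-pituitary cells 2 did, the endothelial genes Pecam1 (9.13 with Gas siRNA and 9.12 with scrambled siRNA) and Cdh5 (9.42 with Gas siRNA and 9.65 with scrambled siRNA), and neither passed. Of the 9, 8 and 7 markers in these lists, 8, 7 and 6 had any probe under their symbol. In bulk RNA, fewer cells of a type and less RNA per cell cannot be told apart.

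Of the 8 kept probes 1 fell and 0 rose with Gas siRNA, at a limma adjusted p under 0.05 over all kept probes. Over the whole array 1.21% of kept probes passed, 0.683% lower and 0.529% higher. The median difference of the 8 probes was -0.030 on the log2 scale, against 0.0039 for all kept probes, and their median absolute difference was 0.11, against 0.12. The probe that fell belongs to Pde4d, and each of the other 7 kept probes had an adjusted p between 0.753 and 0.984 and a difference between -0.27 and 0.25. The 95% intervals of the 8 differences reached between 0.37 and 0.54 to either side. Each interval covers 1 probe alone, and passing the adjusted threshold with 3 arrays per group took a larger difference than that. Smaller changes could have been missed at this brightness. Pde5a, another phosphodiesterase gene of similar brightness, differed by 0.77 and did not pass (limma adjusted p = 0.142). Its probe met the filter through the Gas siRNA arrays alone, and without background correction the difference was 0.22. It therefore does not show how large a change could be missed.

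**Figure D1:**
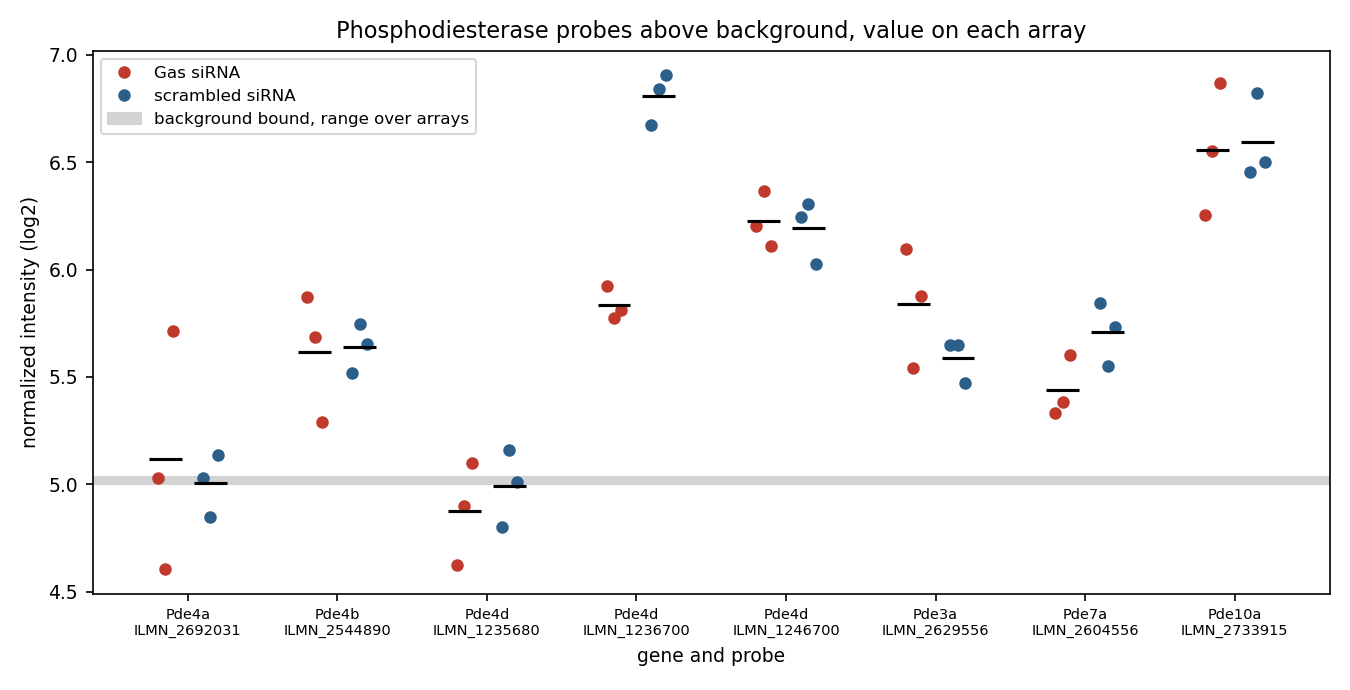
Normalized log2 intensity (y axis) of the 8 kept phosphodiesterase probes (x axis) on each Gas siRNA array (red) and scrambled siRNA array (blue). Black bars are group means of 3 arrays and the grey band is the background bound, between 5.00 and 5.03 on this scale. Only the Pde4d probe ILMN_1236700 separates the groups, with Gas siRNA arrays between 5.78 and 5.93 and scrambled siRNA arrays between 6.68 and 6.90.

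Pde4d, whose product binds beta-arrestin and protein kinase A anchoring proteins in several isoforms, had 5 probes. On probe ILMN_1236700 the normalized log2 intensity was 5.93, 5.78 and 5.81 on the Gas siRNA arrays, against 6.68, 6.84 and 6.90 on the scrambled siRNA arrays. All 3 Gas siRNA arrays lay below all 3 scrambled siRNA arrays. The groups did not overlap on this 1 probe of the 8 kept (12.5%), against 14.8% of all kept probes. The means were 5.84 ± 0.078 with Gas siRNA and 6.81 ± 0.12 with scrambled siRNA (SD, n = 3 each). The difference was -0.97 (SE 0.179, 95% interval -1.34 to -0.60, limma adjusted p = 0.00259), or 1.96-fold lower with Gas siRNA, and 26 of the 261 called probes of the array changed by at least as much.

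The size of this fall depended on how background was removed. The deposited intensities were 173, 167 and 168 with Gas siRNA and 214, 227 and 232 with scrambled siRNA, on arrays whose background centred at 128. Without background correction the log2 difference was -0.41 (limma adjusted p = 0.00316), and with a larger normexp offset of 50 it was -0.68 (limma adjusted p = 0.00232). The direction and the call were the same in all 3, and leaving out any 1 array gave differences from -1.04 to -0.92 with adjusted p no higher than 0.0248. The call was lost when the variance was not modelled along intensity (limma adjusted p = 0.0581).

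None of the other 4 Pde4d probes passed. Probe ILMN_1246700, annotated to the same transcript, had 6.20, 6.37 and 6.11 with Gas siRNA and 6.24, 6.30 and 6.03 with scrambled siRNA. The groups overlapped, and the difference of 0.034 had a 95% interval from -0.35 to 0.41, which does not reach the interval of the probe that fell. Probe ILMN_1235680 lay near background, with 4.62, 4.90 and 5.10 with Gas siRNA and 4.80, 5.16 and 5.01 with scrambled siRNA (difference -0.12, 95% interval -0.62 to 0.38). It was above the bound on 1 Gas siRNA array and 2 scrambled siRNA arrays.

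The remaining 2 Pde4d probes were not kept. Probe ILMN_1215021, also annotated to the same transcript as the probe that fell, pointed the other way: its values were 5.37, 4.95 and 5.18 with Gas siRNA, against 4.85, 4.81 and 4.53 with scrambled siRNA. It exceeded the bound on 2 Gas siRNA arrays and 0 scrambled siRNA arrays, and the groups did not overlap. Of all kept probes 14.8% did not overlap, a share not taken over probes that, like this one, were not kept. With no filter on dim probes its difference was 0.44 (SE 0.221, limma adjusted p = 0.686), which did not pass. Probe ILMN_1230472 was below the bound on all 6 arrays.

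The disagreement was measured within each array, as the log2 value of one probe minus another. ILMN_1236700 minus ILMN_1246700 was between -0.59 and -0.28 on the Gas siRNA arrays, against between 0.43 and 0.88 on the scrambled siRNA arrays. The shift between groups was -1.004, with no overlap (exact permutation p = 0.10, 2-sided, adjusted p = 0.15 over the 3 pairs of kept Pde4d probes). For 3 arrays against 3, 0.10 is the smallest p that this test can give. Against ILMN_1235680 the shift was 0.85 for ILMN_1235680 minus ILMN_1236700 (exact permutation p = 0.10, adjusted p = 0.15), while ILMN_1235680 and ILMN_1246700 shifted by -0.15 against each other (exact permutation p = 0.50).

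With the 3 kept Pde4d probes averaged, the gene's difference was -0.35 (limma adjusted p = 0.464) and did not pass. Of 4382 genes with at least 2 kept probes, 110 had at least 1 called probe, and in 87 of these (79.1%) exactly 1 probe was called; whether the probes of those genes differed from each other was not tested. RefSeq lists 8 Pde4d transcripts, and the sources used here do not say which of them each probe reads. Which transcripts fell was not tested.

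**Figure D2:**
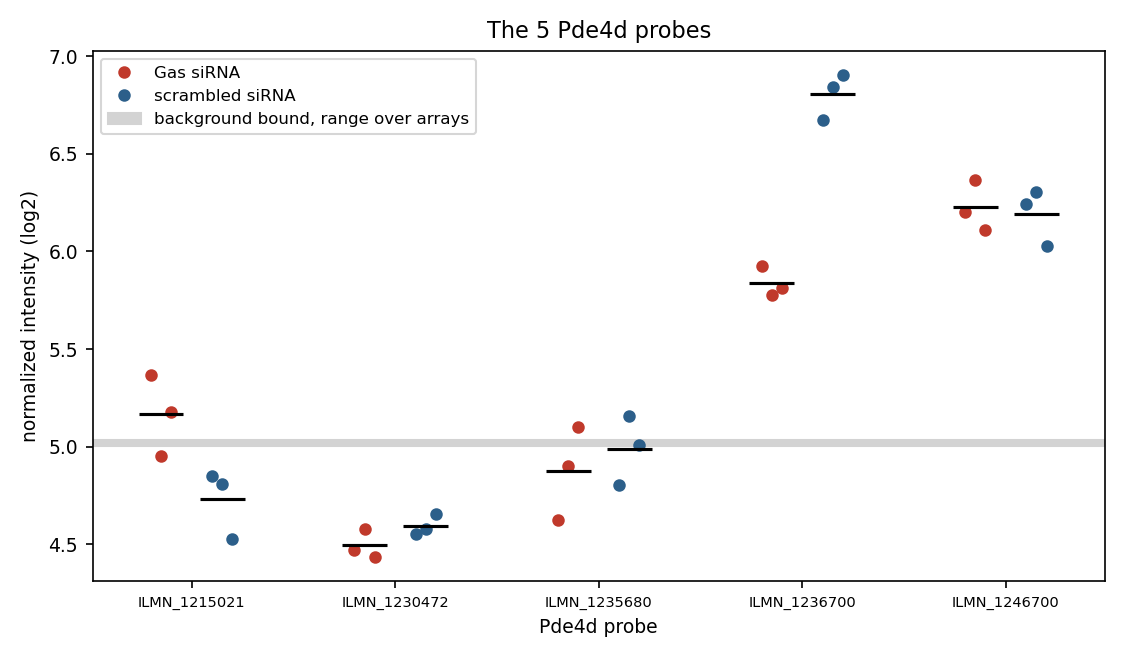
Normalized log2 intensity (y axis) of the 5 Pde4d probes (x axis) on each Gas siRNA array (red) and scrambled siRNA array (blue). Black bars are means of 3 arrays and the grey band is the background bound. The groups are apart on ILMN_1236700, lower with Gas siRNA, and overlap on ILMN_1246700, with means of 6.23 with Gas siRNA and 6.19 with scrambled siRNA.

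Promoter sequence is shown for Pde4d, the 1 member with a called probe, and for Pde4b, its close relative, because CREB, the factor through which cyclic AMP acts on many promoters, binds the element TGACGTCA or its half-site TGACG. RefSeq (GRCm38.p6) gave windows from 250 bases before to 50 after an annotated start for 7 of the 10 genes, 13 windows in all. Bases in capitals are the half-site, searched on both strands; a full element contains it. The Pde4d window is chr13:108653927-108654226 on the plus strand, and the first of the 4 Pde4b windows is chr4:102421305-102421604 on the plus strand.
Pde4d: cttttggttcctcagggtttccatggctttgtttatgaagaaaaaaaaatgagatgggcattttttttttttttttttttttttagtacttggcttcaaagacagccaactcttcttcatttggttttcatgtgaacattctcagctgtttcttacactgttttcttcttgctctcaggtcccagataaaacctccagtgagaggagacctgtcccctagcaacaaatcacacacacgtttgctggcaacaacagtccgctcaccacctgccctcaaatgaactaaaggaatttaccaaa
Pde4b: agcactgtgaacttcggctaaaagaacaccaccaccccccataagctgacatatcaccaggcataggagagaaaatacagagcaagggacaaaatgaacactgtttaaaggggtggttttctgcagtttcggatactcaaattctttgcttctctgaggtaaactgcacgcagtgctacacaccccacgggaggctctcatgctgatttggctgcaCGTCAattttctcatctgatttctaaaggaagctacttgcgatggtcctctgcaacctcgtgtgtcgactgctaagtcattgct

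The Pde4d window held no half-site and 2 CpG dinucleotides in 300 bases. The Pde4b window shown held 1 half-site, in its complementary form, starting at -34 from the annotated start. It was the only 1 of the 4 Pde4b windows with a half-site. Among all windows of the members 3 of 13 (23.1%) held a half-site, 1 each of Pde4a, Pde4b and Pde8a, against 20.8% of all 32851 windows, and 0 of 13 held the full element, against 1.79%. A match is a description of letters and not a binding site, and 1 window does not cover the several promoters of Pde4d.

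Pde4b, the PDE4 gene most associated with inflammatory signalling, had 1 kept probe of 4 (ILMN_2544890). Its values were 5.87, 5.69 and 5.29 with Gas siRNA and 5.52, 5.75 and 5.65 with scrambled siRNA. The groups overlapped, and the difference was -0.024 (95% interval -0.46 to 0.42, limma adjusted p = 0.984). A log2 fall of the size seen on the Pde4d probe lies outside that interval. The Pde4b probe was dimmer with scrambled siRNA (mean 5.64, against 6.81), and nearer background the same fold gives a smaller log2 difference. Whether Pde4b RNA fell by that fold was not tested. The other 3 Pde4b probes were above the bound on 0 of 6 arrays.

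Pde4a, which encodes another of the long and short cyclic AMP-specific enzymes, had 1 kept probe of 4 (ILMN_2692031). It gave 5.03, 4.61 and 5.71 with Gas siRNA, against 5.03, 4.85 and 5.14 with scrambled siRNA, and exceeded the bound on 2 arrays of each group. The 3 Gas siRNA arrays spanned both sides of the scrambled siRNA arrays (difference 0.11, SE 0.262, limma adjusted p = 0.936). Pde4c, the fourth gene of the family, had 2 probes, and both were below the bound on every array.

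Pde3a, the cyclic GMP-inhibited enzyme known from heart, platelets and the oocyte, had 1 kept probe of 3 (ILMN_2629556). Its values were 6.10, 5.54 and 5.88 with Gas siRNA and 5.65, 5.65 and 5.47 with scrambled siRNA. Replicates 1 and 3 of Gas siRNA were above all scrambled siRNA arrays and replicate 2 was not (difference 0.25, 95% interval -0.18 to 0.68, limma adjusted p = 0.777). Pde3b, the related enzyme of fat cells and liver, had 1 probe, below the bound on all 6 arrays.

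Pde7a, a rolipram-insensitive cyclic AMP-specific enzyme, had 1 kept probe of 2 (ILMN_2604556). It gave 5.33, 5.38 and 5.60 with Gas siRNA and 5.84, 5.55 and 5.73 with scrambled siRNA. The ranges overlapped only through Gas siRNA replicate 3, and the difference of -0.27 did not pass (95% interval -0.70 to 0.16, limma adjusted p = 0.753). The second Pde7a probe (ILMN_2448530) was above the bound on 0 Gas siRNA arrays and 1 scrambled siRNA array. Its values were 4.88, 4.90 and 4.92 with Gas siRNA and 4.94, 4.94 and 5.52 with scrambled siRNA, without overlap. Of all kept probes 14.8% did not overlap, a share not taken over probes that, like this one, were not kept. With no filter on dim probes its difference was -0.23 (limma adjusted p = 0.877), which did not pass. Pde7b, its paralogue, had 2 probes that were below the bound throughout.

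Pde10a, an enzyme best known from the striatum, had 1 kept probe of 2 (ILMN_2733915), above the bound on all 6 arrays. It gave 6.25, 6.55 and 6.87 with Gas siRNA and 6.46, 6.82 and 6.50 with scrambled siRNA. The Gas siRNA range enclosed the scrambled siRNA range, and the difference was -0.035 (95% interval -0.41 to 0.34, limma adjusted p = 0.972).

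**Figure D3:**
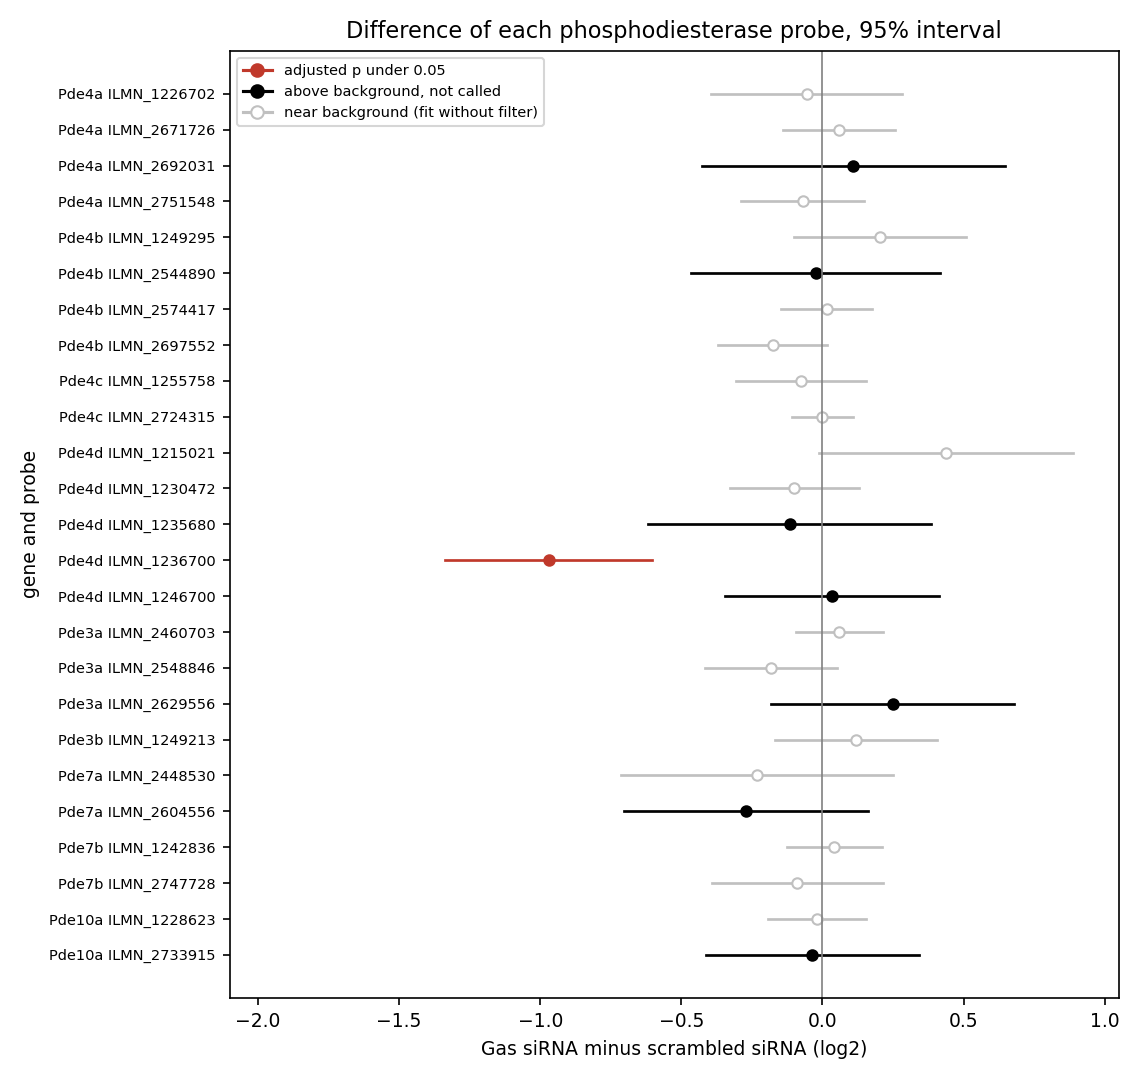
Difference of Gas siRNA minus scrambled siRNA on the log2 scale (x axis) for each of the 25 phosphodiesterase probes (y axis), with 95% intervals from limma over 3 arrays per group. Filled symbols are the 8 kept probes and open grey symbols the 17 near background, from a fit without the filter. The interval of ILMN_1236700 runs from -1.34 to -0.60 and those of the other kept probes include 0.

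The other genes with a phosphodiesterase symbol include the calcium-dependent PDE1 genes, the cyclic GMP-specific Pde5a and the cyclic AMP-specific Pde8b. Of 15 genes 8 had kept probes, among them Pde6d and Pde12, which do not encode enzymes that degrade cyclic nucleotides. On the brightest probe of each gene 0 of the 8 passed in limma and 1 had an unadjusted p under 0.05. Over all 11442 genes read this way 1.71% passed, 0.979% lower, and 11.3% had an unadjusted p under 0.05. The smallest p was that of Pde5a, with 5.20, 5.96 and 5.71 with Gas siRNA and 4.79, 5.04 and 4.74 with scrambled siRNA. This probe was above the background bound on 3 Gas siRNA arrays and 1 scrambled siRNA array, so the Gas siRNA arrays alone met the filter. The groups did not overlap, as on 14.8% of all kept probes. The difference of 0.77, taken against values near background, did not pass (SE 0.239, limma unadjusted p = 0.0033, adjusted p = 0.142). Without background correction it was 0.22. Next was Pde1b, at -0.28 (limma adjusted p = 0.743). A second kept Pde1b probe (ILMN_2730293) was at 0.067 (limma adjusted p = 0.955). With its probes averaged Pde1b was at -0.11 (limma adjusted p = 0.897).

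Genes that make cyclic AMP or respond to it were read in the same way. Of 10 adenylyl cyclase genes 3 had a kept probe and 0 changed in limma (0 at an unadjusted p under 0.05). The smallest p was for Adcy7 (0.11, limma adjusted p = 0.916) and Adcy9 (-0.10, limma adjusted p = 0.934). The Adcy9 probe was near background, above the bound on 2 Gas siRNA arrays and 3 scrambled siRNA arrays. Of 9 genes of protein kinase A subunits and inhibitors 8 had a kept probe and 0 changed in limma (3 at an unadjusted p under 0.05, against 11.3% of all genes). The regulatory subunit gene Prkar2b gave 11.71, 11.73 and 11.88 with Gas siRNA and 11.50, 11.57 and 11.50 with scrambled siRNA (difference 0.25, limma adjusted p = 0.140). The inhibitor gene Pkia had a difference of -0.27 (limma adjusted p = 0.205). Other cyclic AMP effectors, such as cyclic nucleotide-gated channels and Popeye proteins, had kept probes for 6 of 13 genes, of which 11 had any probe. Of the 6, 0 changed in limma (4 at an unadjusted p under 0.05, against the same 11.3%). Bves was at 0.28 and Popdc3 at 0.40 (limma adjusted p = 0.327 and 0.336).

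Proteins that bind phosphodiesterases, such as beta-arrestins, anchoring proteins and myomegalin (Pde4dip), had kept probes for 9 of 15 listed symbols. Of the 15, 12 had any probe on the array, and Gnb2l1 and Rack1 are symbols of the same gene. In limma 0 changed (0 at an unadjusted p under 0.05). The smallest p belonged to the 14-3-3 protein gene Ywhae (-0.37, limma adjusted p = 0.672) and the anchoring protein gene Akap5 (-0.17, limma adjusted p = 0.746). The Ywhae probe was near background, above the bound on 2 Gas siRNA arrays and 3 scrambled siRNA arrays. Of all genes 1.71% passed, and at that share lists this small hold few calls or none. Across these 5 lists the count of changed genes was 0, against 1 of 6 phosphodiesterase genes, which is too few to compare. That 1 depends on the probe: ILMN_1236700 is the brightest for Pde4d over all 6 arrays, but on the Gas siRNA arrays ILMN_1246700, with a difference of 0.034, was brighter.

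CREB target genes, which cyclic AMP induces through protein kinase A, had 3 that fell and 0 that rose among 15 measured, of 20 listed. Over all genes 0.979% fell and 1.71% passed in either direction. The list was chosen with earlier results of these data known, so setting its counts beside shares of all genes is no test. At an unadjusted p under 0.05 in limma there were 5 of the 15, including Scg2 lower and Fos higher, against 11.3% of all genes. Cga and Egr1 are also in the gonadotrope list. The 3 that fell were the inhibin subunit gene Inha at -1.78, the neuropeptide precursor gene Vgf at -0.74 and the clock gene Per2 at -0.51. Their limma adjusted p-values were 1.14e-10, 0.00303 and 0.0191. Per2 no longer passed when Gas siRNA replicate 1 or 2, or scrambled siRNA replicate 1 or 3, was left out (limma adjusted p between 0.0767 and 0.101). Vgf and Per2 did not pass in limma without the intensity trend (adjusted p = 0.275 and 0.227) or with a gene's probes averaged (0.206 and 0.122). Other targets induced quickly by cyclic AMP did not pass: Fos was at 0.35, Crem at 0.32 and Nr4a2 at -0.14 (limma adjusted p = 0.483, 0.713 and 0.898). The Crem probe was near background, above the bound on 3 Gas siRNA arrays and 2 scrambled siRNA arrays.

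**Figure D4:**
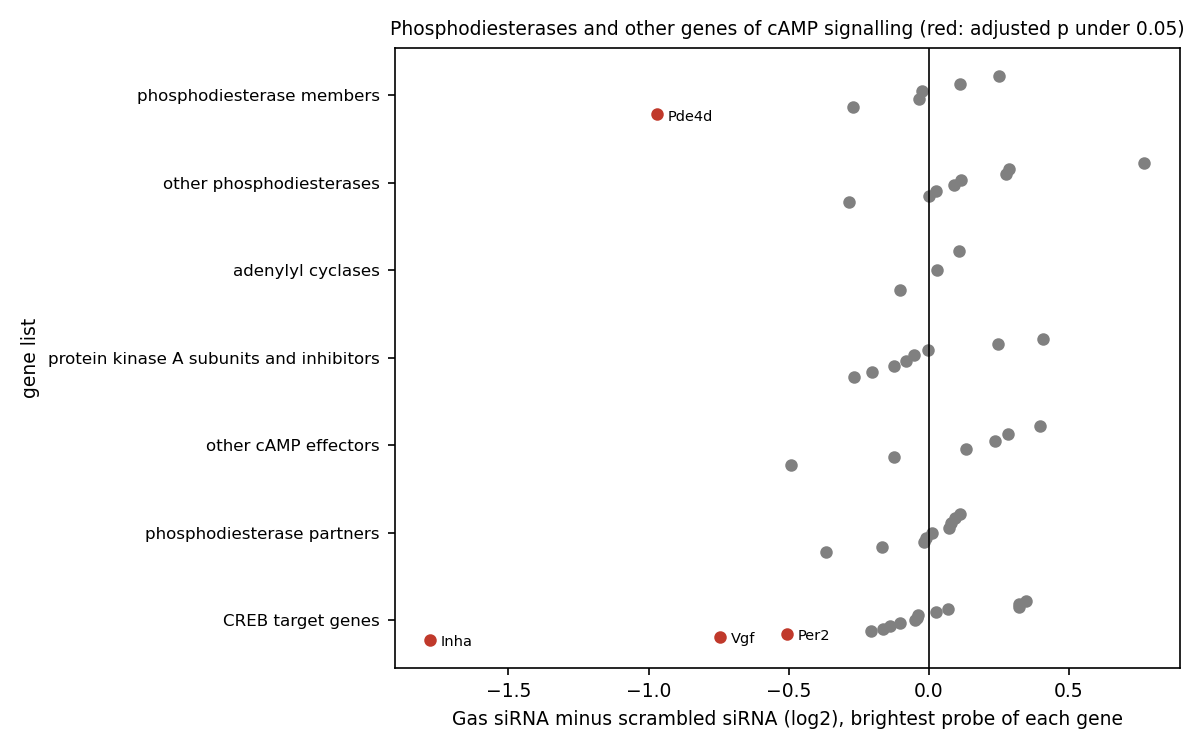
Difference of Gas siRNA minus scrambled siRNA on the log2 scale (x axis) for the phosphodiesterases and 6 other gene lists (y axis). Each gene is 1 point, on its brightest kept probe. Red points had an adjusted p under 0.05 and are named. Pde4d, drawn on ILMN_1236700 at -0.97, is the 1 red point among 6 phosphodiesterase genes (its other bright probe was at 0.034, and its 3 kept probes averaged -0.35 and did not pass), and the 3 others are the CREB targets Inha, Vgf and Per2.

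The probes whose pattern over the 6 arrays was nearest to that of the Pde4d probe ILMN_1236700 were found by the root mean square distance between log2 profiles, each centred on its own mean. They were Cyp11a1, the cholesterol side-chain cleavage enzyme, at a distance of 0.108, Man2a1, a Golgi mannosidase, at 0.114, Laptm5, a lysosomal membrane protein, at 0.148, and Slc25a24, a mitochondrial carrier, and Elapor1, both at 0.155. The median distance over all probes with 1 gene symbol was 0.516. The difference between the groups is part of each profile, and it was -0.86 for Cyp11a1, -1.16 for Man2a1, -0.77 for Laptm5 and -0.74 for Elapor1, which passed in limma (adjusted p = 4.85e-06, 1.14e-10, 0.0226 and 0.0088). Slc25a24 was below the background bound on all 3 Gas siRNA arrays and did not pass (limma adjusted p = 0.175). Laptm5 lost its call without any 1 array except Gas siRNA replicate 1 (limma adjusted p from 0.0730 to 0.108), and Elapor1 without Gas siRNA replicate 3 (0.0513). Without the intensity trend Cyp11a1, Laptm5 and Elapor1 did not pass in limma (adjusted p = 0.0629, 0.137 and 0.151), nor did Cyp11a1 with its probes averaged (0.312) or Laptm5 with no filter on dim probes (0.067).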

How the data were processed

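Total RNA of 6 LβT2 samples was labelled with biotin and hybridised to Illumina mouse BeadChips, per the labels' protocols. The authors deposited linear probe intensity values. The submitters' processing notes name BeadStudio; how the values were normalized is not stated there or in the labels. Below the 10 brightest ranks, sorted columns differed by at most 1.66%, and no value was under 97.6, as in data without background subtraction. Each array had a median of 140.5 or 140.6 and a highest value of 37845.3. The steps below were thus applied to arrays that already shared nearly the same distribution. A second table of 24 columns is named by chip position, matches no sample's labels and was not used, so slide position and detection p-values were not used either.

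Background was estimated on each array from the mode of the log2 density, the SD was taken from values under it, and background was removed by normexp with an offset of 16; values were then quantile-normalized and put on the log2 scale. Groups were compared with limma 3.58.1 (R 4.3.3; lmFit and 2-sided eBayes with variance modelled along intensity), and p-values were adjusted by Benjamini and Hochberg's method over 21535 kept probes, with a threshold of 0.05. Genes outside the phosphodiesterases were represented by their brightest kept probe. The number of arrays limits precision.

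Members and lists were chosen with earlier results of these data known. All member probes are given; of other lists, up to 4 changed genes or the 2 with the smallest p are named, as are the 5 probes nearest in pattern to a called phosphodiesterase probe. Fos, Crem and Nr4a2 were added after their values were seen. The procedure was tested on simulated data. Alternatives changed the background correction, scaling, filter, variance model, probe averaging, replicate block and arrays used.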

Additional observations from a re-analysis of the deposited data

How the results depend on the processing

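The count of 1 called phosphodiesterase probe held in 13 of 15 alternative settings and became 0 without the intensity trend and 0 with the probes of a gene averaged. Over all probes, 261 were called; the count was 8 without the intensity trend, 119 genes with probes averaged, and between 145 and 215 when 1 array was left out, lowest without scrambled siRNA replicate 3. The replicate numbers are not known to pair the samples: deviations from group means correlated at 0.0170, 0.0598 and 0.0961 between arrays of the same number and between -0.0812 and 0.0228 otherwise, and 5 of 6 arrays correlated best with their own number. With the replicate block 427 probes were called in all and 1 among the phosphodiesterases (Pde4d ILMN_1236700, -0.97, limma adjusted p = 0.00110). For the 7 uncalled phosphodiesterase probes, 0 of 101 recomputed values gained a call, and 1 moved by more than its SD (Pde7a, -0.081 without background correction). With no filter, 0 of the 17 dim probes passed in limma, and 0 had an unadjusted p under 0.05. Background level limits what the dim probes can show.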
